A study of Arabidopsis thaliana with 16 samples.

Results

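The cis-lncRNAs are assembled long noncoding RNAs that the authors placed close to a protein-coding gene on the chromosome. They were taken from the deposited coordinate table, where 62 transcripts carry the location cis, and were kept when they also had a row in the table of expression values. This left 58 transcripts from 51 loci, of 1161 assembled lncRNAs with values and 36817 transcripts of all kinds. The other 4 cis transcripts lie on the mitochondrial chromosome and had no values. No measured level entered this choice. The libraries came from 10-day-old wild-type Columbia (Col-0) seedlings of Arabidopsis thaliana, grown with phosphate (P+, 1.25 mM KH2PO4) or without it (P–, where 0.65 mM K2SO4 took its place). Roots and shoots were collected apart, and each RNA was divided into a fraction retained on oligo(dT), poly(A)+, and the remainder, poly(A)–. With 2 replicates each, this gave 8 groups and 16 libraries. Levels are FPKM, fragments mapped to a transcript, scaled to its length and to the size of the library. The number of reads behind a value is not part of the tables used here, so the counting error of a single value is unknown.

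Long noncoding RNAs are transcripts without a recognised protein product. Some act on the gene beside which they are made, some act as hosts from which small RNAs are cut, and for most no role is known, so that closeness to a gene is a position and not a function. Under Pi starvation the transcription factor PHR1 binds the P1BS element, GNATATNC, in promoters of many induced genes, among them those for miR399, a microRNA that lowers the ubiquitin conjugase PHO2. Messenger RNAs and many lncRNAs carry a poly(A) tail, whereas spliceosomal U RNAs and small nucleolar RNAs (snoRNAs), which guide the modification of ribosomal RNA, do not.

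The 58 transcripts were spread over the 5 nuclear chromosomes, with 13, 10, 12, 9 and 14 on chromosomes 1 to 5. Their spliced length ranged from 260 to 4590 bases with a median of 785, below the median of 1111 bases of all assembled lncRNAs with values. Of them 24 (41.4%) had 1 exon, against 49.0% of all assembled lncRNAs, and the longest, from locus XLOC_027179, had 17 exons. Of the 76 introns of the 34 spliced transcripts, 72 began with GT and ended with AG, which fixes the strand of these transcripts without the help of the library protocol, and the other 4 were GC-AG introns. The median GC content was 36.4%, against 41.0% of all assembled lncRNAs. The poly(A) signal hexamer AATAAA stood in the last 50 bases of 12 transcripts (20.7%), and of 8.01% of all assembled lncRNAs. Of the 1161 assembled lncRNAs with values 958 are antisense, with a median of 1134 bases, 41.9% GC and AATAAA in 5.95%. Intergenic lncRNAs had a median of 825 bases and 35.3% GC, with AATAAA in 10.8%. Those over pseudogenes had 1708 bases and 36.9% GC, with AATAAA in 26.9%. The low GC content is therefore not particular to the cis-lncRNAs. These shares are descriptions and were not tested. There were 7 loci with 2 transcripts each (XLOC_006967, XLOC_007292, XLOC_009709, XLOC_009751, XLOC_015236, XLOC_027179 and XLOC_031242), and 44 loci with 1. Transcripts of 1 locus share most of their reads, so their values are not independent.

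The label was checked against a later annotation of the same assembly (TAIR10.1). For 52 transcripts the nearest coding gene with deposited values lay within 500 bases, and for 6 it lay farther. The nearest gene stood on the opposite strand head to head for 13 transcripts (median distance 265 bases) and tail to tail for 14 (158 bases), upstream on the same strand for 8 (308.5 bases) and downstream on the same strand for 11 (269 bases). A further 10 overlapped their nearest gene on the opposite strand and 2 on the same strand. In the later annotation 19 transcripts of 15 loci share exon bases with a coding gene on their own strand, and 15 of the 17 genes concerned have no row in the deposited coding table. XLOC_000784, for instance, lies with all its 860 bases in AT1G15625, annotated as an E3 ubiquitin-protein ligase, and XLOC_031242 lies wholly in AT5G45115, of the transcription termination factor family. These members are called lncRNAs here as the authors' table has them. Of the other loci, 19 overlap a noncoding gene other than a snoRNA gene on their own strand, which are XLOC_001006, XLOC_001962, XLOC_006967, XLOC_007292, XLOC_009175, XLOC_013381, XLOC_013471, XLOC_013746, XLOC_014752, XLOC_015802, XLOC_018915, XLOC_019408, XLOC_021154, XLOC_022933, XLOC_028759, XLOC_028844, XLOC_029825, XLOC_030768 and XLOC_032363. A further 3 loci hold snoRNA genes. XLOC_027179 and XLOC_030131, counted with the coding genes, and XLOC_005491 and XLOC_017785, counted with the snoRNA genes, overlap other noncoding genes as well. Only 3 transcripts (XLOC_020286, XLOC_023020 and XLOC_030250) had no annotated gene on either strand.

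The sequences on which the results below turn come from the TAIR10.1 assembly. The first pair are the 300 bases before the start of XLOC_030250 (chr5:10019780-10020079, minus strand) and of XLOC_032181 (chr5:24961873-24962172, minus strand), the members with the largest rise under P– in roots. Both are written 5′ to 3′ on the strand of the lncRNA with P1BS elements in capitals.
XLOC_030250: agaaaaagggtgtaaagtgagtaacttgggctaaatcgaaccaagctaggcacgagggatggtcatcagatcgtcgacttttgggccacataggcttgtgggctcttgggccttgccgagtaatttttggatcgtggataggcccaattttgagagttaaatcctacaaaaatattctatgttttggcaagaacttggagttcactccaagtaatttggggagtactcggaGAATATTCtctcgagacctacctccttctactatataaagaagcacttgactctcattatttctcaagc
XLOC_032181: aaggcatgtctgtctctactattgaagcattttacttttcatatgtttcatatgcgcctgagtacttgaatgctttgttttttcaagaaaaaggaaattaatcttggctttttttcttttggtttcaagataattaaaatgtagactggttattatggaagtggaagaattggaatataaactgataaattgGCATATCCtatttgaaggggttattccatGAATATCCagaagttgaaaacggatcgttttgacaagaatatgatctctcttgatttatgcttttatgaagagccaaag
The element GNATATNC is its own reverse complement, so that both strands are searched at once. It occurred in this 300-base window of 5 of the 58 cis-lncRNAs (8.62%), of 5.77% of all assembled lncRNAs and of 6.5% of 27444 annotated coding genes. XLOC_030250 had 1 element, GAATATTC, at position -69 from the start of the transcript. XLOC_032181 had GCATATCC at -108 and GAATATCC at -79, and 2 more elements at -427 and -1483. XLOC_032181 starts 612 bases from MIR399c (AT5G62162, chr5:24962485-24962598, plus strand), which points away from it, and 3 of its 4 elements lie between them. The microRNA gene itself was not analysed here.

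The second set are snoRNA genes that lie inside cis-lncRNAs found mainly in the poly(A)– fraction. Transcript XLOC_005491 (chr1:8755605-8756568, minus strand) holds AtsnoR59b (AT1G05907, chr1:8756228-8756303) and AtsnoR59a (AT1G05917, chr1:8756361-8756459), and XLOC_017785 (chr3:5830078-5830498, minus strand) holds AtsnoR66 (AT3G03425, chr3:5830166-5830231) and snoR161. The capitals mark TGATGA and CTGA, the cores of the C and D boxes that define one class of snoRNAs, on the strand of the gene.
AtsnoR59b: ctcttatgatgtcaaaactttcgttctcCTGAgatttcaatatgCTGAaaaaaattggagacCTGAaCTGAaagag
AtsnoR59a: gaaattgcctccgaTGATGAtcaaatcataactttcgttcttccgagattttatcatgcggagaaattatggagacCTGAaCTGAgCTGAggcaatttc
AtsnoR66: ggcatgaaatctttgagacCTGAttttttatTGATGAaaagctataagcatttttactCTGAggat
Of the 287 annotated snoRNA genes, 143 hold TGATGA, 234 hold CTGA and 139 hold both, and the match of so short a word is a description only. XLOC_025979 (chr5:5448511-5450117, plus strand, 1607 bases) holds AtsnoR106 (AT5G02565, 253 bases) and AtsnoR106b (AT5G02575, 290 bases).

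The third set shows why the level of XLOC_028844 (chr5:26949668-26949927, plus strand, 260 bases) is uncertain. Its first 100 bases are set beside the like-placed stretch of the spliceosomal RNA gene U2.3 (AT3G57765, chr3:21397509-21397608, minus strand), with identical bases in capitals.
XLOC_028844: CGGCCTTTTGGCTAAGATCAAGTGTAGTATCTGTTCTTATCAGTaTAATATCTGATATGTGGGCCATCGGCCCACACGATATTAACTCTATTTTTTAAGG
U2.3: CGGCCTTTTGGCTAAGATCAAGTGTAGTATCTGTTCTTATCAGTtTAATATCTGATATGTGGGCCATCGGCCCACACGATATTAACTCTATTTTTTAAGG
They agree at 99 of 100 bases. Over the 260 bases of the transcript 207 (79.6%) were identical to U2.3, the largest number among 23 annotated U2 genes aligned without gaps. U2.3 is annotated with 871 bases. Shorter U2 genes agreed over fewer bases at a higher share, such as U2.10 at 178 of 185 bases (96.2%). Fragments from such copies cannot be assigned to 1 of them with certainty.

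The libraries were checked by marker genes. All 10 Pi starvation genes fixed for the check (IPS1, AT4, SPX1, SPX3, MGD3, SQD2, PHT1;4, PAP17, PS2 and PEPC1) were higher in P– than in P+ in both tissues and both fractions. Their summed poly(A)+ level was 204 FPKM in roots under P+ and 7373 under P–, and 95.3 and 3191 FPKM in shoots. All 8 root markers were higher in roots and all 6 photosynthesis genes were higher in shoots, in both fractions and both media. The photosynthesis genes summed to 558 FPKM in P+ roots and 209 in P– roots, against 14877 and 14327 in the shoots. The root markers summed to 26.5 FPKM in P+ shoots and 144 in P– shoots, against 1951 and 1461 in the roots, with IRT1 at 0 in both shoot groups. Of the shoot sums PHT1;1, a phosphate transporter gene that the paper lists as induced in shoots, made up 10.6 and 93.6 FPKM. In all, 6 of the 8 root markers were higher in P– than in P+ shoots. Whether a few cells of the other tissue contributed to a Pi response of a cis-lncRNA was not tested.

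Levels of the cis-lncRNAs were low and many values were 0. The median over the 58 transcripts ranged from 2.07 to 4.47 FPKM among the 4 root poly(A)+ libraries and from 0.719 to 1.04 among the 4 shoot poly(A)+ libraries. Between 3 and 10 transcripts were listed at 0 in a root poly(A)+ library, 13 to 18 in a shoot poly(A)+ library, 18 to 28 in a root poly(A)– library and 39 to 49 in a shoot poly(A)– library. No transcript was at 0 in all 4 root poly(A)+ libraries, 4 were at 0 in all 4 shoot poly(A)+ libraries, and 28 were at 0 in all 4 shoot poly(A)– libraries. The study reports that most reads of the shoot poly(A)– libraries mapped to the chloroplast and mitochondrial genomes, a far larger share than in the other libraries. Such reads were removed by the study, and whether fewer nuclear reads account for the zeros was not tested. In 28 transcripts every root poly(A)+ library had at least 1 FPKM, and in 14 every shoot poly(A)+ library did. The members together made up 0.0347 to 0.0525% of the FPKM total in root poly(A)+ libraries and 0.0132 to 0.0261% in shoot ones. In poly(A)– libraries they reached 0.0613 to 0.204%, most of it from XLOC_025979 and XLOC_028844. The map of all 58 transcripts over the 16 libraries shows this gradient.

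**Figure D1:**
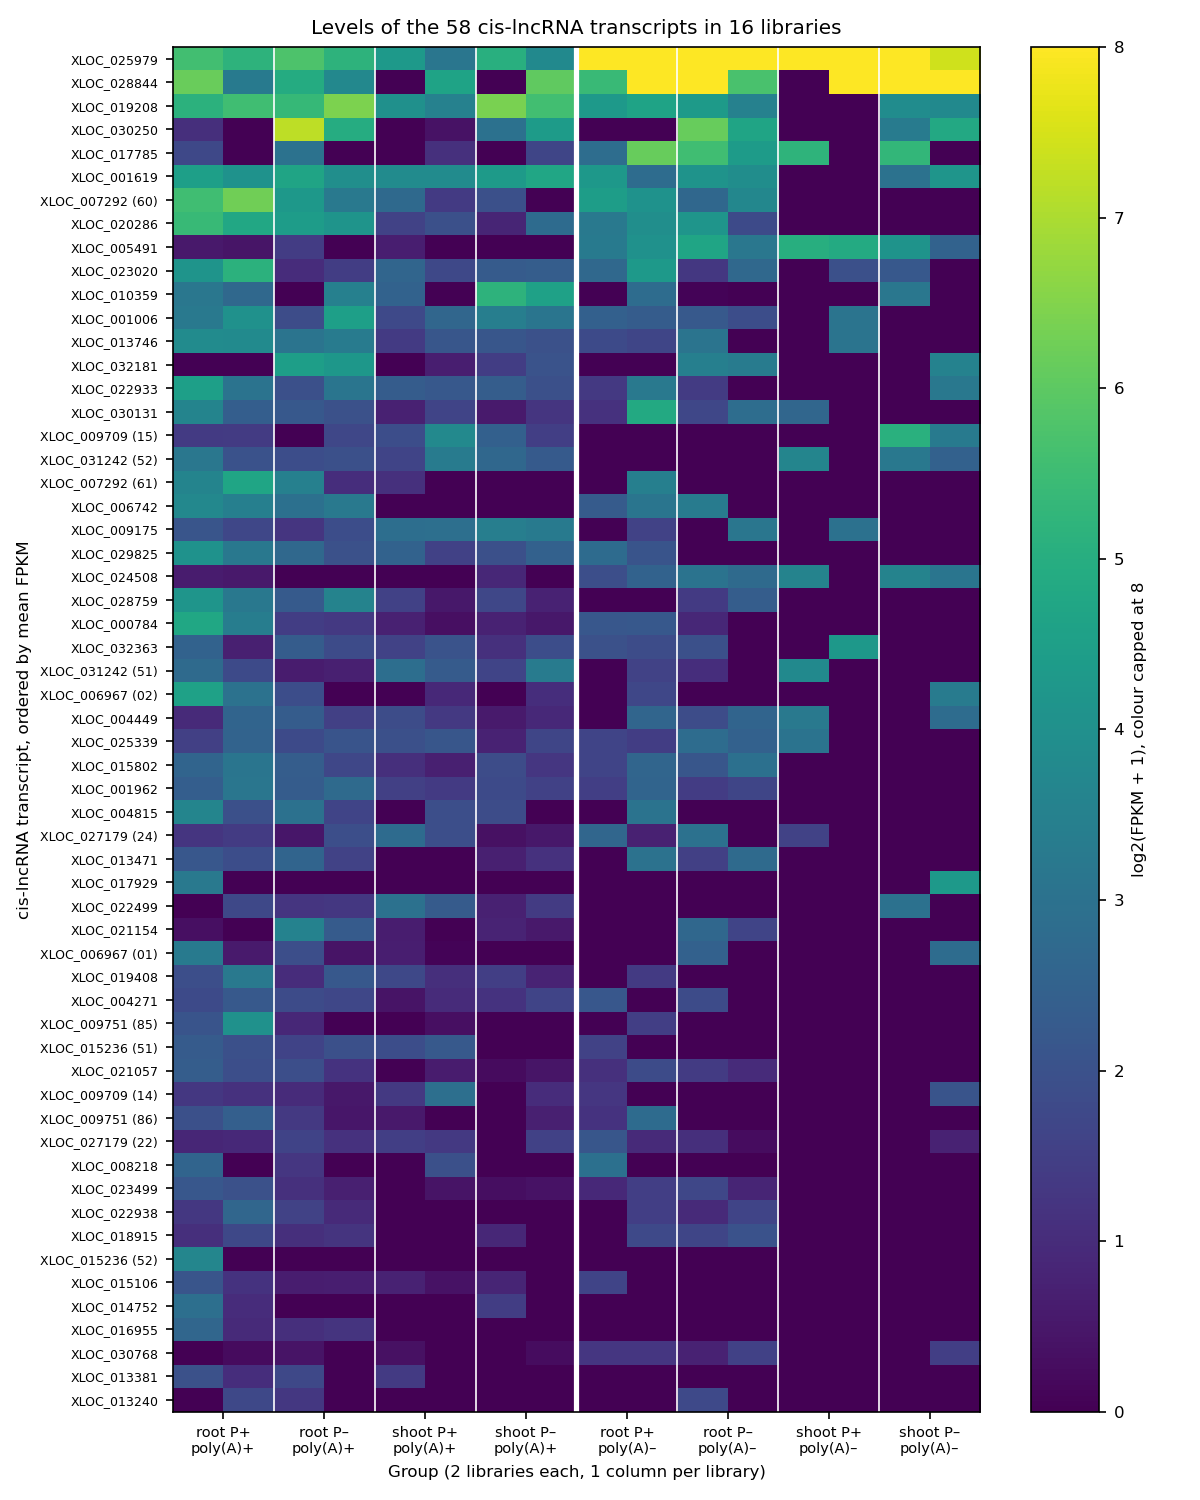
Levels of the 58 cis-lncRNA transcripts (rows, ordered by mean FPKM) in 16 libraries (columns, 2 for each of 8 groups), coloured by log2(FPKM + 1) with the colour capped at 8. A number in brackets gives the last digits of the transcript name where a locus has 2 transcripts. Dark cells, values near 0, fill most of the shoot poly(A)– columns at the right, where 39 to 49 of the 58 transcripts were at 0.

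The 10 transcripts with the highest mean in the poly(A)+ fraction were those of XLOC_019208 (45.1 FPKM), XLOC_025979 (30.3), XLOC_028844 (26.3), XLOC_030250 (25.6), XLOC_007292 (19.9, TCONS_00014060), XLOC_001619 (18.6), XLOC_020286 (14.5), XLOC_010359 (10.8), XLOC_001006 (9.15) and XLOC_023020 (8.64). Among poly(A)– RNA XLOC_025979 (631 FPKM) and XLOC_028844 (264) came first, followed by XLOC_017785 (27.0), XLOC_005491 (17.4) and XLOC_030250 (16.3). XLOC_019208 leads in polyadenylated RNA. Its exons share 649 of 872 bases with AT3G46845, a coding gene of the later annotation with an uncharacterized product.

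The first question was which cis-lncRNAs respond to Pi starvation. All contrasts were fitted with limma on log2(FPKM + 1) over every transcript with a mean of at least 1 FPKM. A transcript was called when it changed by a fold of 2 or more with an unadjusted p under 0.05, which are the study's thresholds, and p-values adjusted by the Benjamini-Hochberg method over all transcripts are given as well. Each group has 2 libraries, which the methods of the study call independent biological replicates, and the p-values measure the spread between these libraries. In bulk tissue, moreover, fewer cells of a type and less RNA per cell cannot be told apart.

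In P– roots, poly(A)+ fraction, 3 of the 51 cis-lncRNA transcripts tested rose and 10 fell. Over all 27395 transcripts tested, 6.5% rose and 5.5% fell (12% together). The share that fell among the cis-lncRNAs was 19.6%, beside 12.5% of 64 intergenic and 7.19% of 876 antisense lncRNAs and 5.34% of coding transcripts. The median difference of the cis-lncRNAs was -0.63 on the log2 scale and that of all transcripts 0.06. The number that fell depended on single libraries. Without P+ root library 2 it was 5, with 4 that rose and a median of -0.46, without P– root library 3 it was 6, and without P+ root library 3 it was 12. At an adjusted p under 0.05 in limma, 2 rose and 1 fell, where 0.715 and 0.464% of all transcripts did (1.18% together). Fitted on roots alone, or without either P– root library, no cis-lncRNA kept an adjusted p under 0.05, and without P+ root library 3 it was under 0.05 for 2 that rose and 5 that fell.

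The strongest rise belonged to XLOC_030250, a single-exon transcript of 891 bases in an unannotated stretch of chromosome 5, which begins just after the first sequence printed above. Its poly(A)+ levels were 1.10 and 0 FPKM in P+ roots and 146 and 30.2 FPKM in P– roots. Both P– libraries stood far above both P+ libraries, although they differed from each other. The difference was 5.55 ± 0.83 (SE, n = 2 against 2) on the log2 scale, with an adjusted p of 0.0345 in limma, ranging from 0.0160 to 0.226 over 15 alternatives. In shoots it was at 0 and 0.323 FPKM under P+ and at 6.96 and 19.9 under P–. Again no value of one medium reached those of the other, and the difference was 3.49 ± 0.83 (adjusted p = 0.0899, limma). Among poly(A)– libraries it was listed at 0 in all 4 P+ libraries of both tissues, whereas P– roots held 69.6 and 24.5 FPKM and P– shoots 9.08 and 27.1. The transcript was therefore called in both tissues and both fractions.

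XLOC_032181 (585 bases, 1 exon) starts at the second sequence printed above, with its 4 P1BS elements on the side of MIR399c. It was listed at 0 in both P+ root poly(A)+ libraries and stood at 21.2 and 17.7 FPKM in P– roots. The replicates of P– roots lay close together. The fitted difference was 4.35 ± 0.43 on the log2(FPKM + 1) scale (SE, n = 2 against 2, adjusted p = 0.0102 in limma, 0.00517 to 0.169 over 15 alternatives). Since the P+ value is 0, this size depends on the 1 FPKM added and is no bound on the fold. In shoots the levels were 0 and 0.580 FPKM under P+ and 1.76 and 3.12 under P– (1.42 ± 0.43, adjusted p = 0.149, limma). It was called there at the study's thresholds, whereas the paper, from its own fit, places this locus among those induced in roots only. In the poly(A)– fraction P– roots had 9.87 and 8.97 FPKM and both P+ root libraries 0. Of its 585 bases 577 lie opposite ZIP12 (AT5G62160), a gene of the zinc transporter family. ZIP12 was at 0 in every P+ library and at no more than 1.53e-07 FPKM in the poly(A)+ libraries. Only in 1 P– root poly(A)– library did it reach 2.1 FPKM.

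The third transcript that rose in roots was XLOC_021154, which lies 182 bases upstream of AT4G13440, a gene for a calcium-binding EF-hand protein, on the same strand. It stood at 0.261 and 0 FPKM in P+ roots and at 10.8 and 3.96 in P– roots. The groups did not overlap, and the difference was 2.77 ± 0.55 (SE, n = 2 against 2, adjusted p = 0.0756, limma). In shoots its 4 values lay between 0 and 0.725 FPKM. The tissue difference of the response was 2.43 for XLOC_021154 (adjusted p = 0.212, limma) and 2.93 for XLOC_032181 (adjusted p = 0.107), and both were called. For XLOC_030250 it was 2.06 ± 1.17 and was not called.

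The largest fall was that of XLOC_023020, 1146 bases of an unannotated stretch on the minus strand of chromosome 4. It went from 16.6 and 34.3 FPKM in P+ roots to 1.01 and 1.71 in P– roots. Both P+ libraries were far above both P– libraries. The difference was -3.42 ± 0.49 (SE, n = 2 against 2, adjusted p = 0.0312 in limma, 0.0246 to 0.249 over 15 alternatives). In shoots the 4 values, 5.15 and 2.35 under P+ and 3.90 and 4.12 under P–, overlapped, and the tissue difference was -3.56 (adjusted p = 0.0934). AT4G05310, the coding gene that ends 265 bases away, was listed at 0 in all 16 libraries.

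XLOC_000784, within the E3 ligase gene AT1G15625, fell from 26.2 and 9.43 FPKM in P+ roots to 1.71 and 1.54 in P– roots. Here too the groups stood apart, with P+ replicates that differed. Its difference was -2.68 ± 0.53 (adjusted p = 0.0744, limma), and it fell in all 15 alternatives. XLOC_006967 (TCONS_00013402) went from 22.7 and 7.07 FPKM to 2.68 and 0, a difference of -2.85 ± 0.84 (adjusted p = 0.179). XLOC_009751, whose 2 transcripts differ by 1 intron, went from 3.22 and 15.4 FPKM to 0.840 and 0 for TCONS_00018485 (-2.61 ± 0.70, adjusted p = 0.152), and both its transcripts were called. XLOC_007292, one of the more abundant loci, went from 46.2 and 76.4 FPKM to 18.1 and 8.51 for TCONS_00014060 (-2.16 ± 0.77, adjusted p = 0.244). In all 4 of these transcripts each P– value was below each P+ value. The remaining calls were XLOC_014752, TCONS_00058551 of XLOC_031242, XLOC_029825 and XLOC_023499, with differences from -1.97 to -1.16 and adjusted p-values of 0.251 to 0.287.

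**Figure D2:**
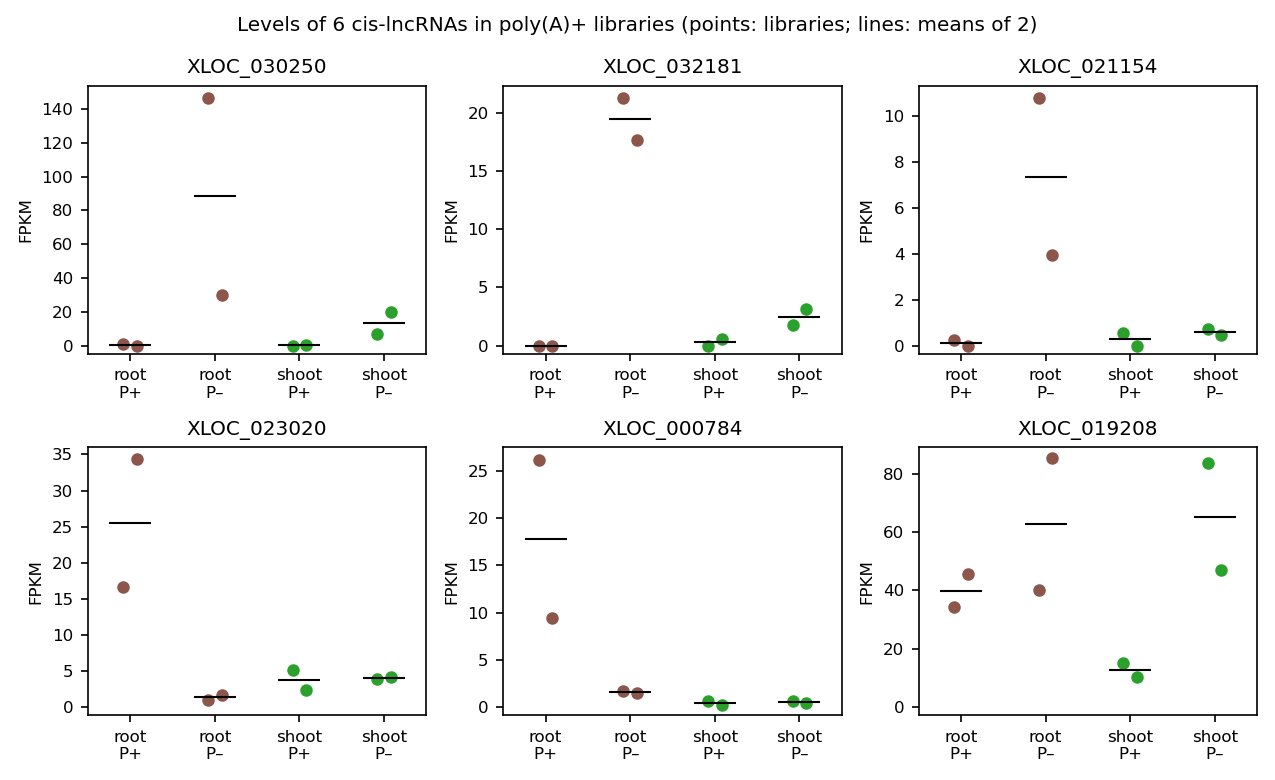
Poly(A)+ levels in FPKM (linear axes, 1 scale per panel) of 6 cis-lncRNAs, with a point per library and a line at the mean of 2. XLOC_030250, XLOC_032181 and XLOC_021154 are near 0 in P+ roots and higher in P– roots, XLOC_023020 and XLOC_000784 run the other way in roots, and XLOC_019208 is higher in P– shoots (83.5 and 46.9 FPKM) than in P+ shoots (15.1 and 10.4).

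In P– shoots, poly(A)+ fraction, 4 of the 51 transcripts tested rose and 4 fell, where 7.55 and 5.4% of all transcripts did (12.9% together). None had an adjusted p under 0.05 in limma, where 1.19% of all transcripts rose and 0.734% fell (1.92% together), while 8 had an unadjusted p under 0.05. The shoots fitted alone gave 2 rises at the adjusted p, and 1 rise and 1 fall passed it without P+ root library 2. The median difference was 0.05 for the cis-lncRNAs and 0.11 for all transcripts. The count of 8 went to 5 without P– shoot library 1 or without either P+ shoot library. XLOC_019208 was the most abundant of those that rose, from 15.1 and 10.4 FPKM under P+ to 83.5 and 46.9 under P–. Both P– libraries exceeded both P+ libraries by a wide margin. Its difference was 2.24 ± 0.45 (SE, n = 2 against 2, adjusted p = 0.0628, limma). In roots its 34.2 and 45.6 FPKM under P+ and 40.1 and 85.3 under P– overlapped, and the tissue difference was -1.68 (adjusted p = 0.270).

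XLOC_010359, opposite a transcribed pseudogene (AT2G38260), rose in shoots from 4.70 and 5.33e-05 FPKM to 35.3 and 22.7 (3.62 ± 1.21, adjusted p = 0.182, limma). In roots its values spread from 0.000549 to 10.2 FPKM in P– alone, so that the replicates were farther apart than the media. The other rises in shoots were those of XLOC_030250 and XLOC_032181 given above. TCONS_00028951 of XLOC_015236, which shares 775 bases with the uncharacterized coding gene AT3G29173, fell from 2.71 and 3.75 FPKM to a listed 0 in both P– shoot libraries (-2.07 ± 0.40, adjusted p = 0.0561). In roots the same transcript lay between 2.03 and 3.94 FPKM in all 4 libraries. TCONS_00050724 of XLOC_027179 went from 6.02 and 2.77 FPKM to 0.280 and 0.430 (-1.93 ± 0.59, adjusted p = 0.153). TCONS_00018414 of XLOC_009709 and XLOC_022499 were the other falls, at -1.62 and -1.56 with adjusted p-values of 0.248 and 0.264, and the groups of both did not overlap.

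Tested directly, the Pi response differed between roots and shoots in 10 transcripts, 3 with the higher response in roots and 7 with the lower. Of all transcripts, 6.76 and 8.16% did so (14.9% together). None passed an adjusted p of 0.05 in limma, as 0.0986 and 0.084% of all transcripts did (0.183% together), and all 10 had an unadjusted p under 0.05. The count was 6 without P+ shoot library 1, 4 without P+ shoot library 2 and 14 without P+ root library 3, where 3 of the 9 lower responses passed the adjusted p. The widest gap was that of XLOC_010359 (-4.82 ± 1.71, adjusted p = 0.249), whose P– root libraries, at 0.000549 and 10.2 FPKM, lay far apart. In the plot of both responses the 10 transcripts that fell in roots lie between -1.06 (XLOC_007292) and 0.73 (XLOC_014752) on the shoot axis, and 2 loci are high on both axes.

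**Figure D3:**
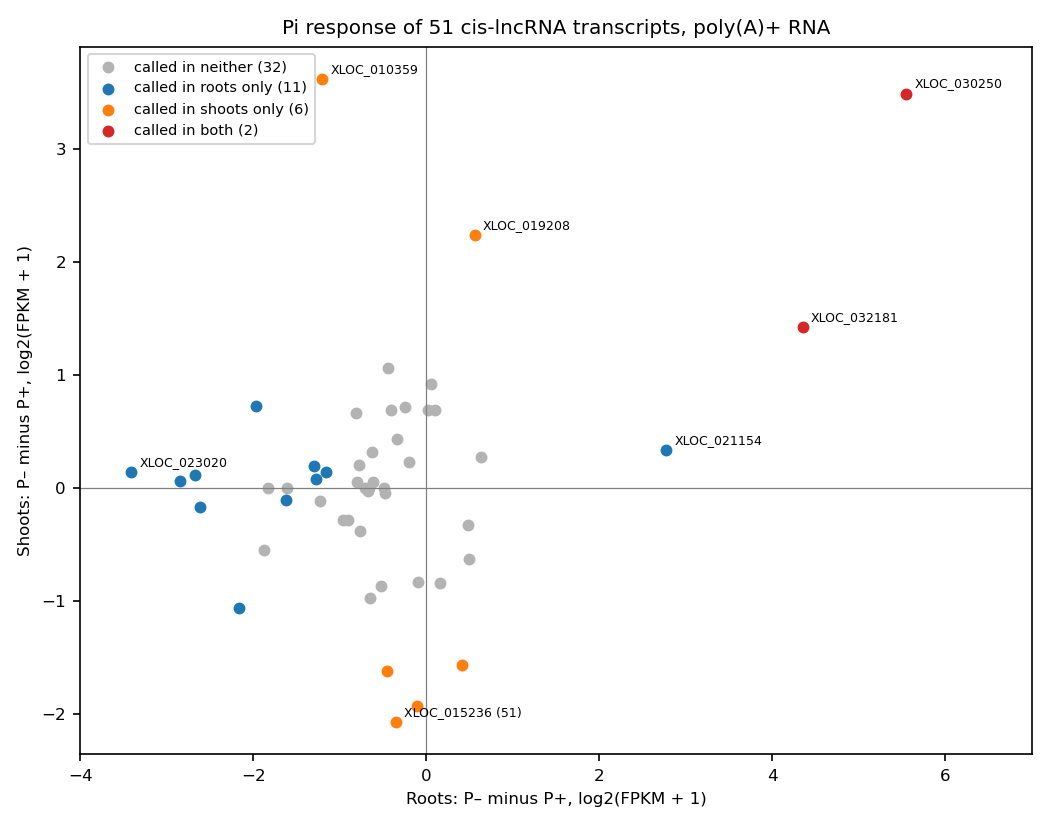
Pi response (P– minus P+ on the log2(FPKM + 1) scale, poly(A)+ fraction) of the 51 tested cis-lncRNA transcripts in roots (x) and shoots (y), coloured by where the transcript was called. XLOC_030250 (5.55 and 3.49) and XLOC_032181 (4.35 and 1.42) were called in both tissues. The paper places XLOC_032181 among the transcripts induced in roots only.

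RNA without a tail allowed a test of 34 transcripts. In P– roots 2 rose and 1 fell, where 3.11 and 3.6% of all 27497 transcripts did (6.7% together), and in P– shoots 4 rose and none fell, where 7.41 and 4.53% did (11.9% together). None of either had an adjusted p under 0.05 in limma, while 3 and 4 had an unadjusted p under 0.05. Of all transcripts, 0.0291% rose in roots and 0% fell at that adjusted p (0.0291% together), and 0.211% rose and 0.0582% fell in shoots (0.269% together). With 0.1 FPKM added in place of 1, all 4 rises in shoots passed the adjusted p. The count in P– roots was 6 without P– root library 2, with 1 that rose and 5 that fell, and 6 without any 1 of the 4 shoot libraries, with 3 in each direction, and that in P– shoots was 10 without P– shoot library 1, and 8 and 7 without P+ shoot library 1 and 2. In roots XLOC_030250 and XLOC_032181 rose and XLOC_029825 fell, the last from 5.88 and 3.18 FPKM to 0 in both P– libraries. In shoots XLOC_019208 was listed at 0 in both P+ libraries and at 13.7 and 12.8 FPKM in the P– libraries (adjusted p = 0.0502, limma). XLOC_001619 (7.13 and 17.0 FPKM), TCONS_00018415 of XLOC_009709 (32.6 and 8.90) and XLOC_030250 were likewise at 0 in P+ shoots and present in P– shoots. These 4 rises start from listed zeros in libraries where 47 and 49 of the 58 transcripts were at 0.

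The second question was in which tissue the cis-lncRNAs are found. In the poly(A)+ fraction 21 of 51 transcripts were higher in roots and 1 was higher in shoots at the study's thresholds. The counts were 21 and 1 as well at an adjusted p under 0.05 in limma, with 1 transcript exchanged for another. Of all transcripts, 22.5 and 14.3% were called in these directions at the study's thresholds (36.8% together), and 26.2 and 15.4% at the adjusted p (41.6% together). The median difference was 0.94 for the cis-lncRNAs and 0.31 for all transcripts, with 0.64 for antisense and 1.35 for intergenic lncRNAs. With 5 FPKM added in place of 1, 7 were higher in roots and none in shoots at the study's thresholds, and with the libraries rescaled to a common median ratio 19 and 3 were. Leaving out 1 library gave 11 to 21 calls of the higher direction at the adjusted p. Group means pointed the same way more often than not: under P+ the root mean exceeded the shoot mean in 47 of 58 transcripts and under P– in 46. The same count over all transcripts was not made, and their median difference of 0.31 leaned to roots as well.

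XLOC_006742 showed the clearest contrast. Its 4 root values were 12.3, 9.89, 6.71 and 8.48 FPKM and its 4 shoot values were all listed at 0. It overlaps NTMC2T6.1 (AT1G53590), a gene of a calcium-dependent lipid-binding family, on the opposite strand with 477 of 488 bases, and that gene was found in both tissues, at 22.7 to 30.3 FPKM in the root and 10.4 to 13.3 in the shoot poly(A)+ libraries. The fitted difference of XLOC_006742, 3.34 ± 0.26 (SE, 4 against 4 libraries, adjusted p = 8.59e-05 in limma), starts from 0 and is no bound. XLOC_007292 had 46.2 and 76.4 FPKM in P+ roots and 18.1 and 8.51 in P– roots against 0 to 5.64 in shoots (3.32 ± 0.55, adjusted p = 0.00275 for TCONS_00014060). Its second transcript, TCONS_00014061, differed by 2.93. XLOC_020286, in an unannotated stretch 236 bases from AT4G01760, a gene for a cysteine/histidine-rich C1 domain protein, had 16.5 to 40.7 FPKM in roots and 0.778 to 5.93 in shoots (2.90 ± 0.44, adjusted p = 0.00193). XLOC_028759, which overlaps the gene of the peroxisomal hydrolase CHY1 on the other strand, had 3.77 to 16.9 FPKM in roots and 0.418 to 2.26 in shoots (2.17 ± 0.47, adjusted p = 0.00926). The 4 root values lay above the 4 shoot values in each of these except TCONS_00014061, where 1 root library (1.08 FPKM) was below 1 shoot library (1.15).

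The other transcripts higher in roots at both thresholds were those of XLOC_000784, XLOC_001962, XLOC_006967 (TCONS_00013402), XLOC_009751 (both), XLOC_013471, XLOC_013746, XLOC_015802, XLOC_016955, XLOC_021057, XLOC_022938, XLOC_023499, XLOC_025979, XLOC_030131 and XLOC_032181, with differences of 1.11 to 2.14. XLOC_021057 and XLOC_023499 cover the same stretch of chromosome 4 (6992825 to 6994750) on opposite strands, with levels of 1.24 to 4.18 and 0.625 to 3.5 FPKM in roots and at most 0.517 and 0.339 in shoots. As some libraries were quantified without strand, the values of such a pair cannot be told apart. XLOC_009175, 305 bases from the end of TRM26 on the other strand, was the 1 transcript higher in shoots. Its shoot values were 6.48, 6.53, 9.63 and 8.62 FPKM and its root values 3.31, 2.23, 1.36 and 2.68, with no overlap (-1.39 ± 0.27, adjusted p = 0.00553, limma). TCONS_00028951 of XLOC_015236 passed the adjusted p at a difference of 0.92, below a fold of 2, and XLOC_021154 passed the study's thresholds alone.

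In the poly(A)– fraction 9 of 34 transcripts were higher in roots and 2 in shoots, where 23 and 12.9% of all transcripts were (35.9% together), and 6 and 1 passed an adjusted p of 0.05 in limma, where 19.7 and 10.6% did (30.3% together). The 6 were XLOC_007292 (3.72 ± 0.45), XLOC_020286 (3.29 ± 0.62), XLOC_015802 (2.34 ± 0.46), XLOC_019208 (2.30 ± 0.36), XLOC_001619 (1.99 ± 0.49) and XLOC_001962 (1.79 ± 0.44), and all but XLOC_019208 and XLOC_001619 were also called in the poly(A)+ fraction. Without P+ root library 3 the count of 11 calls went to 7. The larger organelle share of shoot poly(A)– reads, given above, was not taken into account in this comparison. TCONS_00018415 of XLOC_009709 was higher in shoots at both thresholds, where its 4 values were 0, 0, 32.6 and 8.90 FPKM and all 4 root values were 0, and TCONS_00058552 of XLOC_031242 (-2.33) only at the study's thresholds.

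The third question was whether the cis-lncRNAs carry a poly(A) tail. FPKM are relative to the total of each library, so the fractions compare relative levels. In shoots the organelle share of reads also differed between them, as given above. Of 48 transcripts tested over all 16 libraries, 15 were higher in the poly(A)+ fraction of roots and 4 in the poly(A)– fraction, where 12 and 5.6% of all transcripts were (17.6% together). In shoots 13 were higher in the poly(A)+ and 3 in the poly(A)– fraction, where 19.4 and 8.21% were (27.7% together). The adjusted p in limma was under 0.05 for 6 and 3 of them in roots, beside 6.27 and 3.4% of all transcripts (9.67% together), and for 8 and 3 in shoots, beside 16.8 and 7.1% (23.9% together). The 6 in roots went to 1 without P– root poly(A)+ library 3, to 2 without P– root poly(A)– library 3 and to 3 without P– root poly(A)+ library 2 or P+ root poly(A)– library 2, and the 8 in shoots to 4 without P+ shoot poly(A)+ library 1 and to 5 without any other shoot poly(A)+ library. Among those higher in the poly(A)+ fraction of roots were XLOC_028759 (2.37 ± 0.45), TCONS_00014061 of XLOC_007292 (2.35 ± 0.72), TCONS_00058552 of XLOC_031242 (2.26 ± 0.69), XLOC_006967 (1.94 ± 0.75) and XLOC_013746 (1.89 ± 0.71). Of these only XLOC_028759 had an adjusted p under 0.05 in limma (0.0107). The others that had it were XLOC_029825, XLOC_019408, XLOC_015236, XLOC_000784 and XLOC_019208. In shoots XLOC_019208 led (2.96 ± 0.31, adjusted p = 0.000196), followed by XLOC_001619 (2.40 ± 0.37), XLOC_009175 (2.38 ± 0.75), XLOC_010359 (2.27 ± 0.95) and XLOC_029825 (2.13 ± 0.38). All of these but XLOC_010359 (adjusted p = 0.104, limma) passed the adjusted p in shoots, as did XLOC_001962, XLOC_007292, XLOC_015802 and XLOC_020286.

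The poly(A)– side was made up of few loci, and 3 of them hold snoRNA genes. XLOC_025979, which holds AtsnoR106 and AtsnoR106b, had 34.7 to 53.5 FPKM in root poly(A)+ libraries and 765, 912, 855 and 328 in root poly(A)– libraries. In shoots it had 7.91 to 32.3 FPKM in the poly(A)+ and 466, 273, 1278 and 170 in the poly(A)– libraries. The fractions were far apart in both tissues (-3.96 ± 0.58 and -4.59 ± 0.58, adjusted p = 0.00372 and 0.000516, limma). XLOC_005491, with the AtsnoR59b and AtsnoR59a genes printed above, had 0 to 1.66 FPKM in all 8 poly(A)+ libraries. Its poly(A)– values were 8.90, 15.7, 25.3 and 7.97 in roots and 31.7, 28.7, 16.3 and 4.68 in shoots, and the fractions did not overlap (-3.21 ± 0.50 and -3.97 ± 0.50, adjusted p = 0.00494 and 0.000514). XLOC_017785, with AtsnoR66 and snoR161, had 6.19, 70.2, 46.0 and 19.9 FPKM in root poly(A)– libraries and 35.8, 0, 38.2 and 0 in shoot ones, against 0 to 7.06 in the poly(A)+ libraries. It was called in roots (-3.55 ± 1.39, adjusted p = 0.127), and in shoots the fractions overlapped. Fragments of a snoRNA and of a longer host transcript cannot be told apart in these values.

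Among the loci called higher in the poly(A)– fraction, only XLOC_024508 had no annotated small RNA gene. It lies with 614 of 628 bases opposite NDB1 (AT4G28220), which encodes a mitochondrial NAD(P)H dehydrogenase. Its poly(A)– values were 2.78, 4.71, 7.25 and 5.78 FPKM in roots and 11.0, 0, 11.0 and 7.70 in shoots, and its poly(A)+ values ranged from 0 to 0.853. The difference was -2.27 ± 0.63 in roots and -2.35 ± 0.63 in shoots (adjusted p = 0.0441 and 0.0200, limma). NDB1 itself was at 5.59 to 12.7 FPKM in all 16 libraries of both fractions. XLOC_028844, the member with the U2 sequence, had 8.75 to 71.9 FPKM in root poly(A)+ and 41.7 to 370 in root poly(A)– libraries, and its shoot values ran from 0 to 64.6 and from 0 to 518. Its replicates differed widely, and neither tissue passed the test (-2.47 ± 1.88 and -3.91 ± 1.88).

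**Figure D4:**
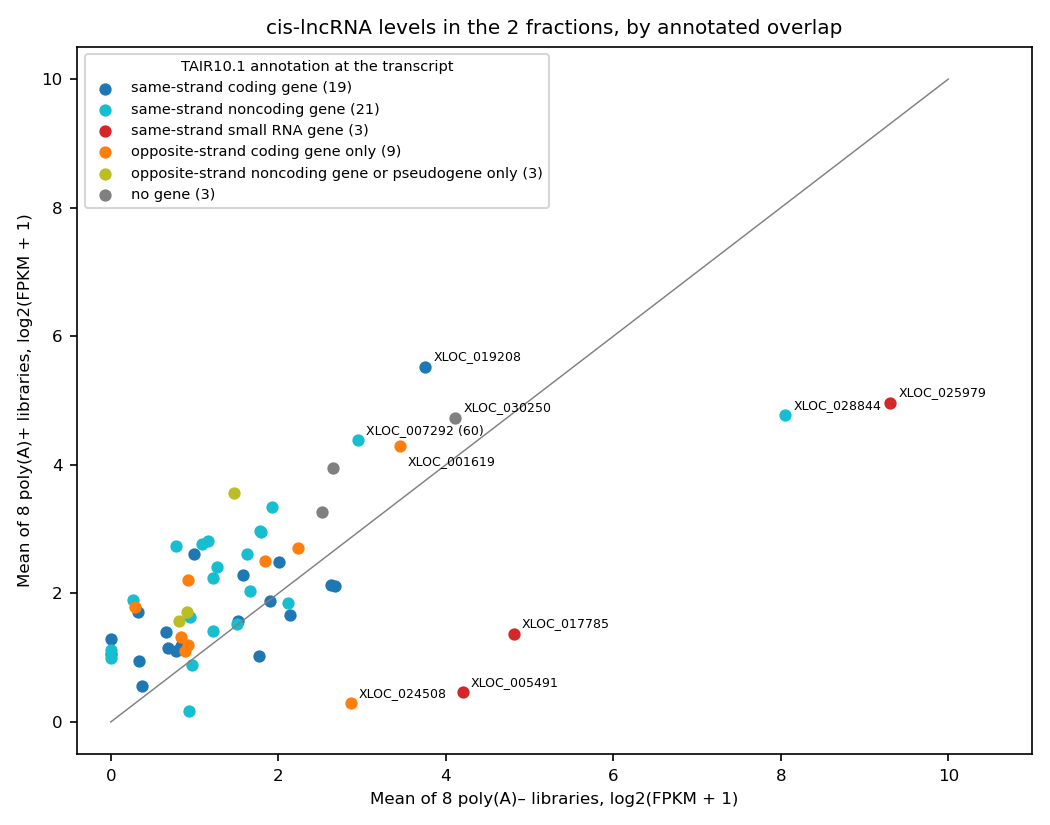
Mean level of each of the 58 cis-lncRNA transcripts in the 8 poly(A)– libraries (x) and the 8 poly(A)+ libraries (y), as log2(FPKM + 1), coloured by what the TAIR10.1 annotation places there. The line marks equal levels. XLOC_025979, XLOC_028844, XLOC_017785, XLOC_005491 and XLOC_024508 lie to the right of the line, and the 3 loci with snoRNA genes are among them.

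By the class rule of the study, with a ratio of at least 2 between the fraction means, 32 of 58 transcripts were poly(A)+, 18 bimorphic and 7 poly(A)– in P+ roots, with 1 at 0 in both. In P+ shoots these numbers were 37, 7, 7 and 7. Other assembled lncRNAs were poly(A)+ in 42.6% and poly(A)– in 19.6% in P+ roots, beside 55.2 and 12.1% of the cis-lncRNAs, and in P+ shoots in 47.2 and 21.4%, beside 63.8 and 12.1%. The study reports a larger poly(A)+ share under P+ in both tissues, over annotated and assembled lncRNAs together. Here transcripts at 0 in both fractions stay in the total, and why the shares differ was not tested. Under P– the poly(A)– class held 9 cis-lncRNAs in roots (15.5%, beside 16.4% of other assembled lncRNAs) and 14 in shoots (24.1%, beside 25.8%). The poly(A)– shares were thus close to those of the other lncRNAs under P–. The poly(A)+ class under P– held 48.3% in roots, beside 39.7%, and 56.9% in shoots, beside 40.6%. Only 5 transcripts were poly(A)– in all 4 conditions, those of XLOC_005491, XLOC_017785, XLOC_024508, XLOC_025979 and XLOC_028844. A further 8 were poly(A)+ in all 4, and 19 were poly(A)– in at least 1. The class is a ratio of means of 2 libraries, many of them at 0, and without P+ root poly(A)+ library 2 the poly(A)– class in P+ roots held 11 transcripts.

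The last comparison set each cis-lncRNA beside its nearest coding gene. The 58 transcripts had 50 such genes, of which 33 had a mean of at least 1 FPKM. In P– roots 1 of the 33 rose and 2 fell, where 7.08 and 5.85% of all 19743 coding genes did (12.9% together), and in P– shoots 3 rose and 1 fell, where 9.34 and 6% did (15.3% together). At an adjusted p under 0.05 in limma, 1 rose in roots, beside 2.47 and 1.98% of coding genes that rose and fell (4.45% together), and 1 rose and 1 fell in shoots, beside 5.09 and 3.26% (8.35% together). The count in roots was 7 without P+ root library 3 and 5 without P– root library 3, and that in shoots was 2 without P+ shoot library 2. Both partners could be tested in 32 pairs. Their differences had the same sign in 14 pairs in roots and 11 in shoots, and Pearson's r across the pairs was -0.42 and -0.13, as a description, since pairs share libraries and some share a gene. The remaining pairs in shoots are not all of opposite sign. XLOC_006742, XLOC_016955, XLOC_017929 and XLOC_022938 were at 0 in every shoot poly(A)+ library, so their shoot difference has no sign.

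Of the 5 pairs whose lncRNA was called in roots, 1 had a called neighbour. That pair was XLOC_021154, which rose, and AT4G13440, the EF-hand gene downstream, which fell from 22.3 and 42.7 FPKM in P+ roots to 7.06 and 15.3 in P– roots (-1.48 ± 0.50, adjusted p = 0.135). In shoots the same gene was listed at 0 in both P+ libraries and rose to 2.53 and 0.707 FPKM under P– (adjusted p = 0.147), while the lncRNA differed by 0.34 and was not called. Beside XLOC_030250 the gene AT5G27990, of a pre-rRNA-processing family, had 85.5 and 94.7 FPKM in P+ roots and 54.4 and 81.7 in P– roots, a difference of -0.43 that was not called. The strongest response of a neighbour was that of HOL2 (AT2G43920), a methyltransferase gene, from 3.69 and 1.73 FPKM in P+ roots to 97.7 and 82.4 in P– roots (4.67 ± 0.30, adjusted p = 0.000172, limma). XLOC_013381, which lies 185 bases downstream of HOL2 on the same strand, had 2.99 and 1.06 FPKM under P+ and 2.34 and 0 under P–, and fell below the mean of 1 FPKM needed for the test.

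In shoots none of the 5 called lncRNAs whose neighbour could be tested had a called neighbour. In roots GRF8 (AT5G65430), which encodes a 14-3-3 protein and ends 440 bases from XLOC_032363, also fell (-1.07 ± 0.27). AT3G50400, of the GDSL lipase family, rose in shoots (1.65 ± 0.30, adjusted p = 0.0156) beside XLOC_019408, which differed by -0.28. AT1G30590, of the RNA polymerase I initiation factor RRN3 family, fell (-1.04 ± 0.29, adjusted p = 0.0625) opposite XLOC_001619, which differed by 0.69. ZW9 (AT1G58270), downstream of XLOC_006967, passed the adjusted p in shoots at a difference of -0.92, below a fold of 2. The count of falls at the adjusted p was 0 with the replicate number as a block, without any 1 of the 4 shoot libraries and without either P– root library, and that of rises was 0 without any 1 of the 4 shoot libraries. At the adjusted p 2 rose and 3 fell when either P+ root library was left out.

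**Figure D5:**
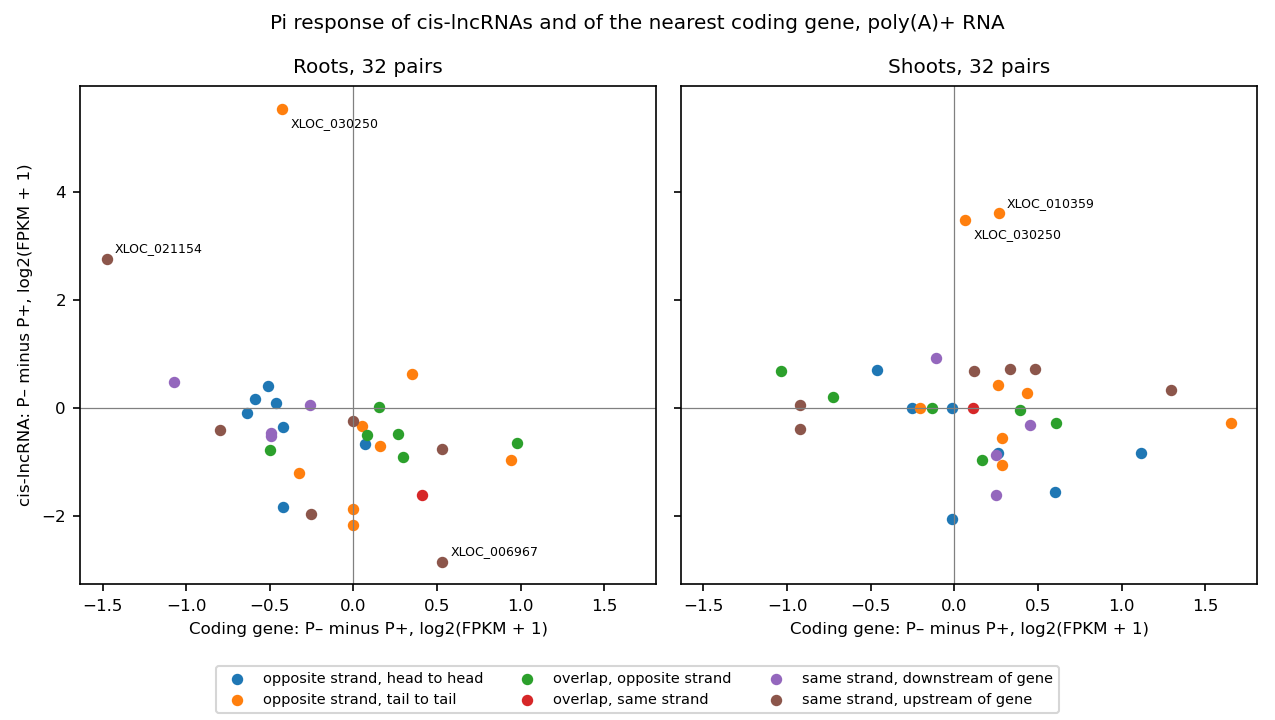
Pi response (P– minus P+, log2(FPKM + 1), poly(A)+ fraction) of cis-lncRNAs (y) and of their nearest coding gene (x) in roots and shoots, 32 pairs each, coloured by the position of the pair. In roots the largest rise of a lncRNA (XLOC_030250, 5.55) stands beside a gene at -0.43, and XLOC_021154 (2.77) stands beside a gene at -1.48.

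The strand settings bear on members that overlap a gene on the other strand. By the labels, root replicate 1 and shoot replicate 2 were treated as unstranded, and the other replicate of each tissue as first-strand. For 10 cis-lncRNA transcripts of 9 loci the authors' table of responding lncRNAs names the replicate of each value. XLOC_032181, opposite ZIP12, had 21.2 FPKM in the unstranded and 17.7 in the first-strand P– root library, and 0 in both P+ root libraries. XLOC_030250 had 146 and 30.2 FPKM in these, and XLOC_023020 had 16.6 and 34.3 in the P+ root libraries of the 2 settings and 1.01 and 1.71 in the P– root ones. The direction in roots was the same in either setting for all 3. XLOC_030250 and XLOC_023020 have no annotated gene on either strand, and ZIP12 was near 0 in the poly(A)+ libraries. These 3 can therefore not show an effect of the setting. Members opposite other coding genes with values, such as XLOC_006742, are not among the 10 and were not compared.

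The share of cis-lncRNAs with a P1BS element upstream was set beside that of other genes, without a test. Within 2 kb upstream 23 of 58 (39.7%) had at least 1, beside 37.6% of all assembled lncRNAs and 37.0% of annotated coding genes. Within 1 kb there were 10 (17.2%, beside 19.4 and 20.3%), and within 500 bases 8 (13.8%, beside 9.91 and 10.7%). Among the transcripts tested in roots, 2 of 7 with an element within 500 bases rose and 3 fell, and 1 of 44 without one rose and 7 fell. The 2 that rose are XLOC_030250 and XLOC_032181, and of those that fell XLOC_000784 has GAATATAC at -90. The paper already lists XLOC_030250 and XLOC_032181 as potential PHR1 targets with these elements. These counts are a description, and the binding of PHR1 was not measured.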

How the data were processed

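FPKM values of each transcript and library were deposited by the authors, who mapped reads to TAIR10 with TopHat2, assembled transcripts with Cufflinks, excluded candidates with coding potential and estimated the levels with eXpress. The labels also name DESeq2, which the authors ran for their own fold changes and p-values. Those columns, which sit in the tables of responding transcripts, were not used. The study lists mapped reads per library, which were not used here.

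Cis transcripts were joined to FPKM by transcript name. Transcripts that averaged under 1 FPKM in the libraries of a fit were left out, 1 FPKM was added to each value before taking log2, and limma 3.58.1 in R 4.3.3 fitted group means with a variance trend, 4 groups per fraction and 8 groups for contrasts of fractions. Tests are two-sided with Benjamini-Hochberg adjustment over all transcripts of a fit, or over all coding genes on summed FPKM. Calls need a fold of 2 and an unadjusted p under 0.05. The tests were tried on simulated data. Neighbours, introns, motifs and overlaps were read with Python 3.11.15 and pandas 2.3.3 from the TAIR10.1 sequence and annotation, and figures were drawn with matplotlib 3.10.9. Root columns of the expression table are numbered 2 and 3, where the labels have replicates 1 and 2, so they were assigned to groups by name and not to replicates.

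The members and lists were chosen with earlier results of these data known. Named were members with an adjusted p under 0.05 in any contrast, the 5 with the largest difference per direction and contrast among those called, the 10 highest in a fraction, those over an annotated noncoding gene on their strand, loci with 2 transcripts or a partner on the other strand, and XLOC_030250, XLOC_023020 and XLOC_032181, with their nearest coding genes. HOL2, GRF8, AT3G50400, AT1G30590 and ZW9 were named after their values were seen. Alternatives were 0.1 or 5 FPKM added, other filters, rescaled libraries, each tissue alone, loci as the feature, a replicate block (in roots by column number, added after seeing the data) and leaving out each library.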

Additional observations from a re-analysis of the deposited data

How the results depend on the processing

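All 113 called results of cis-lncRNAs and neighbours kept their direction in 1798 alternatives, and in 1531 of these the call was kept. In the other 267 it was lost, and 40 results kept the call in every alternative run for them. The causes were not tested. With 0.1 FPKM added, the calls of the Pi response in poly(A)+ roots went from 13 to 8 and those between the fractions of shoots from 16 to 25. With 5 FPKM added, the Pi response in poly(A)+ shoots went from 8 to 3, roots against shoots from 22 to 7 in the poly(A)+ and from 11 to 6 in the poly(A)– fraction, the fractions from 19 to 8 in roots and from 16 to 8 in shoots, and the neighbours in shoots from 4 to 0. A mean of at least 5 FPKM left fewer transcripts to test, and 6 calls in poly(A)+ roots, 4 in poly(A)+ shoots, 5 for the tissue difference, 1 in poly(A)– roots, 9 and 5 between the tissues in the 2 fractions, and 5 and 8 between the fractions of roots and shoots. With no filter there were 7 calls in poly(A)– roots and 17 between the tissues in the poly(A)– fraction. The fit of roots alone gave 8 calls in poly(A)+ roots. P1BS elements were found for 10 transcripts in 1 kb and for 8 in 500 bases.

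Leaving out 1 library at a time, where a lone library is assumed to vary like the other groups, gave 9 to 16 calls in poly(A)+ roots, 5 to 7 in poly(A)+ shoots, 4 to 14 for the tissue difference, 3 to 6 in poly(A)– roots and 4 to 10 in poly(A)– shoots. It gave 21 to 26 and 7 to 14 calls between the tissues in the poly(A)+ and poly(A)– fractions, 14 to 19 and 12 to 18 between the fractions of roots and shoots, and 2 to 7 and 2 to 4 among the neighbours in roots and shoots. The poly(A)– class in P+ roots held 8 to 11 and that in P+ shoots 5 to 9 transcripts.

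Shoot columns carry the replicate numbers of the labels, and root columns carry numbers of their own, 2 and 3. With 2 pairs each, the correlation of the replicate differences of P+ and P– was 0.16 and 0.04 in shoots and 0.13 and 0.10 in roots. The first value of each is for the poly(A)+ and the second for the poly(A)– fraction. The numbers are not shown to pair P+ with P– samples. Fractions of the same RNA, and roots and shoots of the same seedlings, were not checked for such pairing. The main fits treat these libraries as independent. With the replicate block there were 7 calls of the Pi response in poly(A)+ shoots, where XLOC_022499 lost its call, 4 in poly(A)– shoots, 17 between the fractions of shoots and 4 among the neighbours in shoots. A replicate block by column number in roots, chosen after seeing the data, gave 12 calls in poly(A)+ roots, 3 in poly(A)– roots, 18 between the fractions of roots and 3 among the neighbours. TCONS_00018486 of XLOC_009751 lost its call in poly(A)+ roots and TCONS_00014060 of XLOC_007292 that between the fractions.

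With 2 libraries a group, many listed zeros and no read counts, differences of transcripts near 1 FPKM are the least certain, and differences from or to 0 depend on the FPKM added.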
